A study of Mus musculus with 1037 samples.

Results

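The 4 genes described here encode nuclear receptors for vitamin D and steroid hormones: Vdr (vitamin D receptor), Nr3c1 (glucocorticoid receptor), Nr3c2 (mineralocorticoid receptor) and Esr1 (estrogen receptor alpha). They were chosen by name, and each was found by its Ensembl identifier as 1 of the 55335 gene rows of the count table, of which 21604 are protein-coding. Levels were read in single cells of the outer root sheath (ORS), the outer epithelial layer of the mouse hair follicle, in which the stem cells of the follicle reside. The cells came from mice labelled wild type, whose strain the labels do not name, and no treatment or transgene was used. Late anagen (AnaVI) cells of postnatal day 15 came as the sort LOS from the lower ORS and as the sorts MOS and UOS, which share the label of the upper-middle ORS. CatVI cells of day 17 came from the upper ORS on 6 plates named P17f, called pl1 to pl6 below. Of these, pl1 and pl2 are titled PhagoHFSC_alive, pl3 and pl4 NonPhagoHFSC_alive, pl5 PhagoHFSC_apop and pl6 NonPhagoHFSC_apop. CatVII cells of day 18 came from the upper ORS as OSalive and OSapop. Each stage pooled several mice whose cells the labels do not tell apart, so a sort or plate counts as 1 pool and groups are compared without a test. Stage, gating and library preparation changed together and cannot be told apart.

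Each of the receptors is a transcription factor that is switched by a small lipid-soluble ligand. VDR binds DNA as a partner of RXR, a retinoid X receptor, and is required in keratinocytes for the hair cycle after the first coat, a role that does not need its ligand. The glucocorticoid and mineralocorticoid receptors are close relatives that wait in the cytoplasm in a complex with HSP90 and its helpers and share DNA sites and the ligand corticosterone, which the enzyme HSD11B2 inactivates. Glucocorticoids restrain inflammation and hair growth, and estrogen acting on ESR1 holds mouse follicles in the resting phase.

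Cells under 2000 detected genes were not used. There remained 463 of 1035 grouped cells, among them 39 of 93 LOS cells, 38 of 72 MOS cells and all but 22 UOS cells (83.6%). On the CatVI plates 19 of 88 cells passed on pl1, 9 of 73 on pl2, 15 of 85 on pl5 and 14 of 69 on pl6, while 0 of 67 and 0 of 57 passed on pl3 and pl4. At CatVII all but 31 OSalive cells (80.1%) and all but 49 OSapop cells (65.2%, 92 cells) passed. A level is the summed count of a gene over the cells of a sort per 1000000 counts of protein-coding genes (CPM), because 1 identifier without a symbol held 65.5% of all counts. The sorts held between 328232 protein-coding counts on pl6 and 47720291 in OSalive, so values of the plates are the least precise. Intervals at 95% are exact Poisson limits for CPM, exact binomial limits for ratios and Clopper-Pearson limits for shares. They cover counting error at most. Reads were counted without molecular identifiers, so copies of 1 molecule count as separate reads. The limits for CPM and ratios treat reads as independent and can therefore be too narrow. Whether these limits overlap orders the groups only roughly. In a summed sort, fewer cells with a transcript and less transcript per cell cannot be told apart, so shares of cells are given beside the levels.

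The sorts held other cells beside the ORS. The 14 markers of the ORS and bulge, among them Krt5 and Krt14, all had counts in every group with passing cells and summed to 8202 CPM in LOS and to between 22039 and 25429 CPM in MOS, UOS, OSalive and OSapop. Krt5 was counted in 38 of 39 LOS cells and in every passing cell of MOS, UOS, OSalive and OSapop. The sort excluded cells with CD140a, a surface protein of fibroblasts. All 8 markers of fibroblasts and dermal papilla were nevertheless counted in LOS, at a sum of 6807 CPM, against 75.7 CPM in MOS, 1685 CPM in UOS, 1137 CPM in OSalive and 1030 CPM in OSapop. Inner root sheath and hair shaft markers summed to 2793 CPM in LOS and 4455 CPM in UOS but to between 158.5 and 190.8 CPM in MOS, OSalive and OSapop. On pl2 melanocyte markers summed to 1263 CPM and markers of differentiated epidermis to 1734 CPM. For these reasons each receptor is also given for cells in which the ORS list held more counts than each of 6 lists of other cells, a rule chosen after values had been seen. It kept 27 of 39 LOS cells, 38 of 38 MOS cells, all but 8 UOS cells, 52 of 57 CatVI cells, all but 2 OSalive cells and 91 of 92 OSapop cells.

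In the mouse genome GRCm39 Vdr (ENSMUSG00000022479.15) lies on the minus strand at chr15:97752306-97808511, Nr3c2 (ENSMUSG00000031618.13) on the plus strand at chr8:77625576-77971863 and Esr1 (ENSMUSG00000019768.16) on the plus strand at chr10:4561593-4955626. Nr3c1 is placed with its levels below. The canonical transcripts measure 4376 bases for Vdr, 6479 for Nr3c1, 6037 for Nr3c2 and 6249 for Esr1. A long non-coding RNA on the opposite strand covers 14.8% of the exonic bases of Nr3c1 (Gm58395), 8.78% of those of Nr3c2 (Gm10649) and 2.16% of those of Vdr (Gm62301), and none was annotated over exons of Esr1. The library kit does not mark strand, so reads of a receptor and of its antisense partner cannot be told apart there. Gm10649 was given 8 counts over all passing cells against 1054 counts of Nr3c2. Gm58395 and Gm62301 had no row in the count table, so no counts of theirs can be set beside those of Nr3c1 and Vdr.

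The 250 bases before the canonical transcript start are shown for Vdr, the receptor with the highest level per transcript length, and for the sparse Nr3c2 and Esr1, which differ from it in the core motifs they hold. A search on both strands covered 5 words, and those found are in capitals. The words were the GC box GGGCGG, the CCAAT box, the TATA box TATAAA, the glucocorticoid receptor word AGAACA and the nuclear receptor word AGGTCA. Sequences were read from GRCm39 at chr15:97806198-97806447 for Vdr (minus strand), chr8:77628531-77628780 for Nr3c2 (plus strand) and chr10:4659870-4660119 for Esr1 (plus strand).
Vdr: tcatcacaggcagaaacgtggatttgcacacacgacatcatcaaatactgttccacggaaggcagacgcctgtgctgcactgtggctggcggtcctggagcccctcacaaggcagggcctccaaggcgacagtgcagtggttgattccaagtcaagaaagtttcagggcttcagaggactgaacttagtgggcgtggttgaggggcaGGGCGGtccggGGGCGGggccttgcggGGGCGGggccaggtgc
Nr3c2: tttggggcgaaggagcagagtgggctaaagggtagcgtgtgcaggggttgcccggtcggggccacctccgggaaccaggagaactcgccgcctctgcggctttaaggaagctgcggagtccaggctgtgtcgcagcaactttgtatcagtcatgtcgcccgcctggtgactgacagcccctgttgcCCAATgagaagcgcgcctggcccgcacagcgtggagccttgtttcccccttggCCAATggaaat
Esr1: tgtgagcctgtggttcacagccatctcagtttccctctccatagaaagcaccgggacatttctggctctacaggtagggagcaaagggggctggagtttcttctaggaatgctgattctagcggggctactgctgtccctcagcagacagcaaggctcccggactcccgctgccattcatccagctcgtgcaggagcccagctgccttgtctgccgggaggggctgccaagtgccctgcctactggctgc
The Vdr window held 3 GC boxes, which began 43, 32 and 16 bases before the start. The Nr3c2 window held 2 CCAAT boxes, which began 64 and 11 bases before the start, and the Esr1 window held none of the words. The Nr3c1 window, which is not shown, held none of the words either. Each window shown lies inside the annotated span of its gene, and starts further upstream were not read. Among the windows of all 21604 protein-coding genes 36.4% held the GC box, 36.5% CCAAT, 11.9% TATAAA, 14.3% AGAACA and 13.1% AGGTCA. GC content was 61.2% for Vdr, 62.4% for Nr3c2 and 59.6% for Esr1, above the median of 53.2% over all windows, and the windows held 12, 16 and 6 CpG sites against a median of 8. These matches describe the letters of the windows only, and no binding was measured.

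Divided by transcript length, so that genes can be compared, the level of Vdr was the highest of the 4 receptors in every group and that of Nr3c1 came next. Vdr ranged from 77.8 CPM per kb on pl5 to 261.2 CPM per kb in MOS and Nr3c1 from 3.32 CPM per kb on pl2 to 84.9 CPM per kb in OSalive. The levels of Esr1 and Nr3c2 were at most 3.57 and 2.74 CPM per kb. By this level Vdr was within the top 1.34% of the 16118 protein-coding genes with a count in UOS and the top 1.19% of the 15441 in OSalive. In OSalive Nr3c1 was at rank 488, Esr1 at rank 8861 and Nr3c2 at rank 9509.

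**Figure D1:**
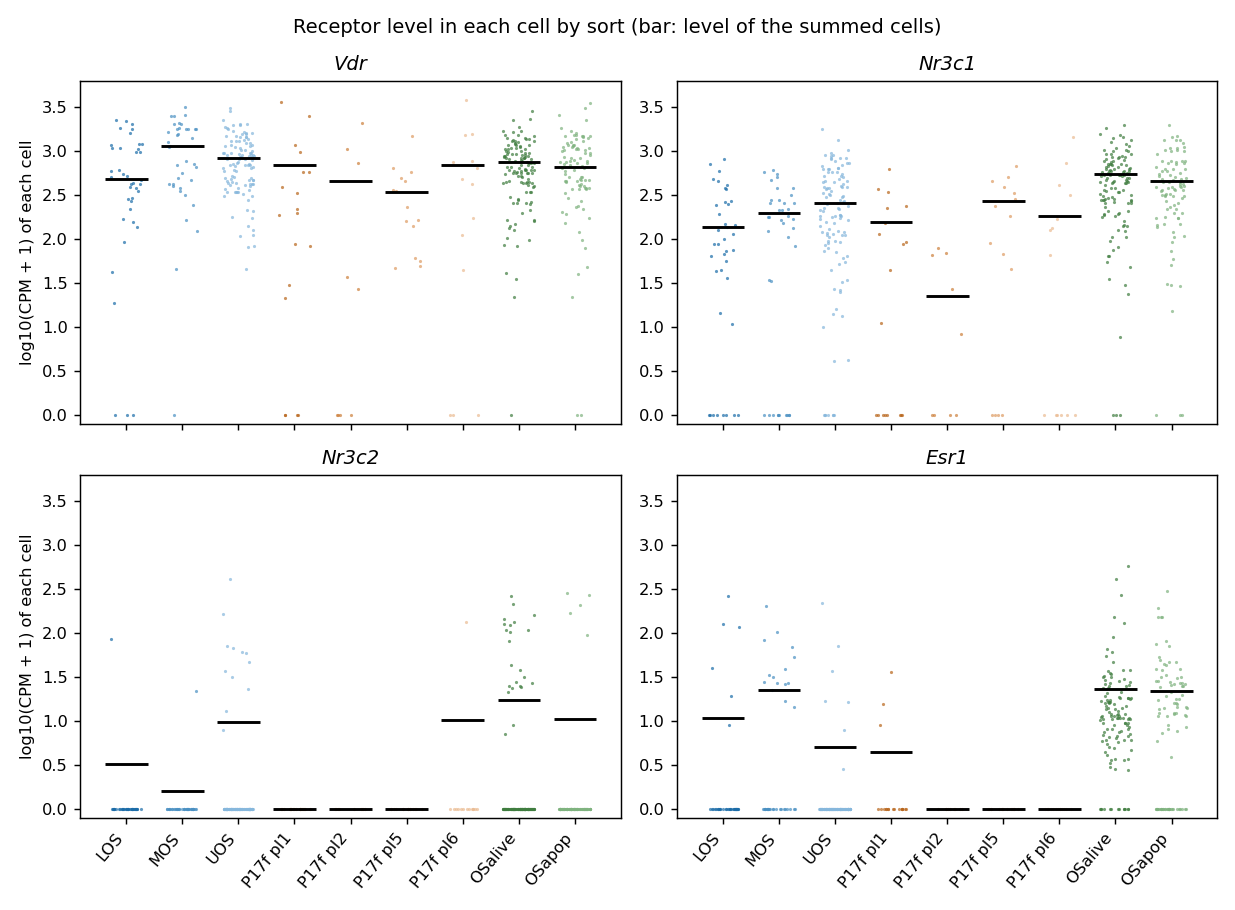
Each point is 1 passing cell and shows log10(CPM + 1) of 1 receptor (panels Vdr, Nr3c1, Nr3c2 and Esr1) by sort or plate on the x axis, and the bar is the level of the summed cells. Few cells lie at 0 for Vdr in the 5 sorts of late anagen and CatVII, namely 3 in LOS, 1 in MOS, 0 in UOS, 1 in OSalive and 2 in OSapop, whereas most cells of every sort lie at 0 for Nr3c2.

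Vdr was counted in nearly all ORS cells of late anagen and of CatVII. Its level was 489 CPM in LOS (95% interval 461 to 519), 1143 CPM in MOS (1092 to 1196) and 836 CPM in UOS (822 to 852). It was 749.8 CPM in OSalive (742 to 758) and 673 CPM in OSapop (659 to 687). The plates gave 702 CPM on pl1 (654 to 752), 459 CPM on pl2 (397 to 529), 341 CPM on pl5 (304 to 380) and 701 CPM on pl6 (613 to 797). By the summed level MOS was thus the highest group and pl5 the lowest. The intervals of neighbours in this order overlapped for OSalive, pl1, pl6 and OSapop and for LOS and pl2.

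A Vdr count was found in 36 of 39 LOS cells, 37 of 38 MOS cells, all UOS cells, all but 1 OSalive cell (99.2%) and 90 of 92 OSapop cells. On the plates it was found in 15 of 19 cells of pl1, 5 of 9 of pl2, 15 of 15 of pl5 and 11 of 14 of pl6. Cells of 1 sort spanned a wide range nonetheless. Per-cell levels ran from 45.6 CPM over a median of 774 CPM to 3126 CPM in UOS, from 0 over 1140 CPM to 3188 CPM in MOS and from 0 over 472 CPM to 2305 CPM in LOS. They ran from 0 over 657 CPM to 2912 CPM in OSalive and from 0 over 710 CPM to 3546 CPM in OSapop, so the cells of any 2 of these sorts overlapped throughout. On pl1 and pl2 the medians of 198.8 and 26.1 CPM lay far below the summed levels, and 1 cell held 33.8% of the Vdr counts of pl1 and 52.1% of those of pl2. The medians on pl5 and pl6 were 231.2 and 454.4 CPM, so pl5 was not the lowest group by its median cell. With each cell thinned to 10000 protein-coding counts, the share of cells with a Vdr count was 87.5% in LOS, 93.8% in MOS, 97.3% in UOS, 96.8% in OSalive and 93.02% in OSapop, and on the plates it ran from 25% on pl2 to 86.7% on pl5.

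Nr3c1 (ENSMUSG00000024431.15, minus strand of chr18 at 39543598 to 39652474) was highest at CatVII. Its level was 137.9 CPM in LOS (95% interval 122.9 to 154.2), 198.1 CPM in MOS (177.3 to 220.7) and 257.02 CPM in UOS (248.8 to 265.4). It was 550.2 CPM in OSalive (544 to 557) and 463 CPM in OSapop (452 to 475). The plates gave 157.5 CPM on pl1 (135.4 to 182.1), 21.5 CPM on pl2 (9.85 to 40.9), 269.8 CPM on pl5 (237.3 to 306) and 182.8 CPM on pl6 (139.5 to 235.3). Both CatVII sorts lay above every sort of the earlier stages. Among the rest, the intervals of pl5 and UOS overlapped, as did those of MOS, pl6, pl1 and LOS taken in that order, while pl2 stood alone at the bottom with 9 counts in 9 cells.

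Nr3c1 was counted in 31 of 39 LOS cells, 28 of 38 MOS cells, all but 7 UOS cells (93.8%), all but 3 OSalive cells (97.6%) and 89 of 92 OSapop cells. The median cell held 87.7 CPM in LOS, 174.9 CPM in MOS, 222.3 CPM in UOS, 463 CPM in OSalive and 392 CPM in OSapop. The highest cells reached 820 CPM in LOS, 608 CPM in MOS, 1805 CPM in UOS, 2012 CPM in OSalive and 1983 CPM in OSapop. Single cells of the stages therefore overlapped, although the median CatVII cell lay above the median late anagen cell. At an equal depth of 10000 counts a cell, Nr3c1 was found in 45.8% of LOS cells, 75% of MOS cells and 72.1% of UOS cells. At that depth it was found in 91.1% of OSalive cells (95% interval 84.7 to 95.5) and 83.7% of OSapop cells (74.2 to 90.8), and on the plates in 12.5% of cells on pl2 to 53.8% on pl6. Both CatVII sorts thus still had the highest shares without a gap in depth. The interval of MOS (56.6 to 88.5) overlapped those of both CatVII sorts. That of OSapop also overlapped those of UOS (62.8 to 80.2), pl5 and pl6. Vdr and Nr3c1 were counted together in 29 of 39 LOS cells, 27 of 38 MOS cells, all but 7 UOS cells, all but 4 OSalive cells and 87 of 92 OSapop cells.

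Nr3c2 was sparse and came from few cells. It had 5 counts in LOS, all in 1 cell, 1 count in MOS, and counts in 12 cells of UOS (10.7%), where 1 cell held 84 of them (66.7%). OSalive held 789 counts over 23 cells (18.4%), OSapop 130 counts over 5 of 92 cells and pl6 3 counts in 1 cell, while pl1, pl2 and pl5 had a count of 0. The levels were 2.25 CPM in LOS, 0.600 CPM in MOS, 8.75 CPM in UOS, 9.14 CPM on pl6, 16.5 CPM in OSalive and 9.65 CPM in OSapop. OSalive was the highest group (95% interval 15.4 to 17.7), and the intervals of OSapop, pl6 and UOS overlapped. A count of 0 allows up to 2.596 CPM on pl1, 7.18 CPM on pl2 and 3.26 CPM on pl5, taken at 3 counts per plate, so a level like that of LOS could not be detected there. Where a cell held Nr3c2, the median was 28 counts in the 23 OSalive cells, 18 in the 5 OSapop cells and 4 in the 12 UOS cells, and in OSapop 2 cells held 75.4% of all counts. At 10000 counts a cell Nr3c2 was found in 11.3% of OSalive cells (95% interval 6.31 to 18.2), 4.65% of OSapop cells (1.28 to 11.5), 6.31% of UOS cells (2.57 to 12.6), 4.17% of LOS cells and 0 of 32 MOS cells. These intervals overlapped one another, so no difference in the share of cells was detectable at this depth.

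Esr1 was low like Nr3c2 (3.57 and 2.74 CPM per kb in OSalive) but was found in far more cells at CatVII. It was counted 1065 times in OSalive, in all but 13 cells, and was found in 61 of 92 OSapop cells. Late anagen gave 22 counts in 6 of 39 LOS cells, 36 counts in 15 of 38 MOS cells and 58 counts in 7 UOS cells (6.25%). On the plates it was counted 4 times in 3 of 19 cells of pl1 and 0 times on pl2, pl5 and pl6, where 0 counts allow up to 7.18, 3.26 and 9.14 CPM. The levels were 9.91 CPM in LOS (95% interval 6.21 to 15.01), 21.6 CPM in MOS (15.1 to 29.9), 4.03 CPM in UOS (3.06 to 5.21), 22.3 CPM in OSalive (20.997 to 23.7) and 20.6 CPM in OSapop (18.3 to 23.2). MOS was thus level with both CatVII sorts, and UOS, which carries the same label as MOS, lay below them.

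The share of cells with Esr1 moved with depth. OSalive cells held a median of 364123 protein-coding counts against 26812.5 in MOS, 27496 in LOS, 90245.5 in UOS and 81722.5 in OSapop, and the median OSalive cell with Esr1 had 4 counts of it. After thinning to 10000 counts a cell, Esr1 was found in 15.3% of OSalive cells (95% interval 9.48 to 22.9), 13.95% of OSapop cells (7.42 to 23.1) and 18.8% of MOS cells (7.21 to 36.4), in place of 89.6%, 66.3% and 39.5% at full depth. In UOS the share fell to 1.80% (0.219 to 6.36), and in LOS it was 12.5% (2.66 to 32.4). UOS was the one late anagen sort whose interval lay apart from those of the CatVII sorts.

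**Figure D2:**
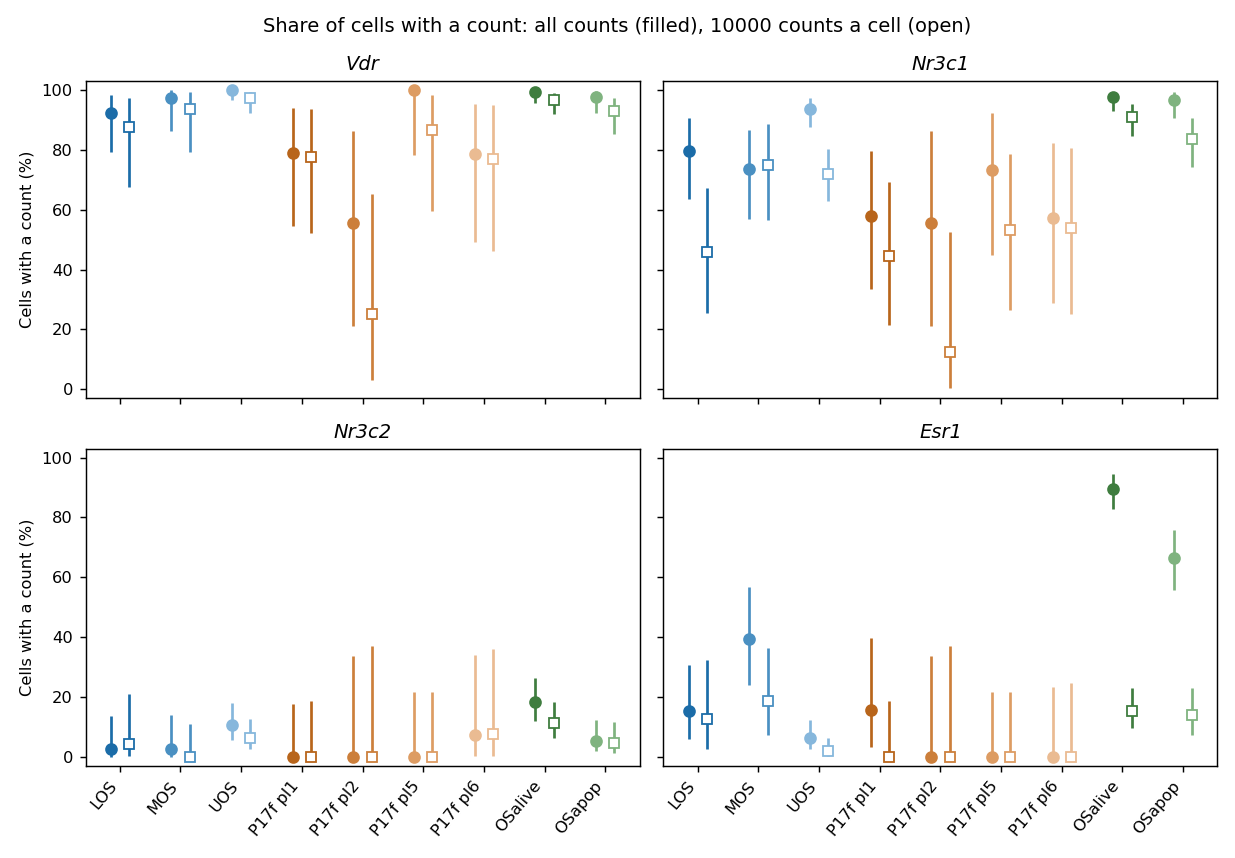
The y axis gives the percentage of passing cells with a count of each receptor, by sort on the x axis, at full depth (filled) and after thinning each cell to 10000 protein-coding counts (open), with 95% Clopper-Pearson intervals. Thinning moves Esr1 in OSalive from 89.6% to 15.3% and leaves Vdr there at 96.8%.

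Cells led by the ORS list differed from the other cells of their sort. In UOS the cells led by the ORS list held Vdr at 929 CPM and the other 8 cells at 241.4 CPM. In LOS these values were 827 CPM in 27 cells and 177.6 CPM in 12 cells, and in OSalive 758 CPM in these cells and 43.99 CPM in the other 2 cells. Among the 12 LOS cells, 1 led by the endothelial list held 28.1% of all protein-coding counts of LOS, with Vdr at 218.3 CPM. Vdr was therefore the higher in cells led by the ORS list in these sorts, and the gap between LOS and UOS was smaller among those cells. Nr3c1 stood at 168.1 against 110 CPM in LOS, 277.7 against 123.3 CPM in UOS and 554 against 191.3 CPM in OSalive.

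Esr1 went the other way. In OSalive it stood at 16.4 CPM in the cells led by the ORS list and at 557 CPM in the 2 cells led by the fibroblast list, which held 27.3% of the 1065 counts of the sort. The highest of these cells held 25.4% of them, with 10405 counts of Col1a1 and 16500 of Col3a1, collagen genes of fibroblasts, beside 3841 counts of Krt5 and 9912 detected genes. Both collagens and Krt5 were thus high in 1 well. In UOS the highest cell held 29 of the 58 Esr1 counts, was led by the inner root sheath list with 6930 counts of Krt71 and had 13735 detected genes. That cell also held 13034 counts of the fibroblast list, with 4852 of Col1a1 and 5471 of Col3a1. In LOS the highest cell held 7 of the 22 counts, was led by the fibroblast list and had 0 counts of Krt5. Without the cells led by other lists Esr1 was still counted in 89.4% of OSalive cells, at 16.4 CPM. It was counted in 60 of 91 OSapop cells at 20.3 CPM and in 6 UOS cells (5.77%) at 2.32 CPM. Collagen was also counted in some of these cells. The highest in OSalive held 10.6% of the Esr1 counts of the sort, with 1297 counts of Col1a1 and 796 of Col3a1. The highest in OSapop held 19.4%, with 744 counts of Col3a1 and 0 of Col1a1. The highest such cells of UOS and MOS held 0 counts of the fibroblast list. The part of fibroblast transcripts in the remaining levels was not tested.

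**Figure D3:**
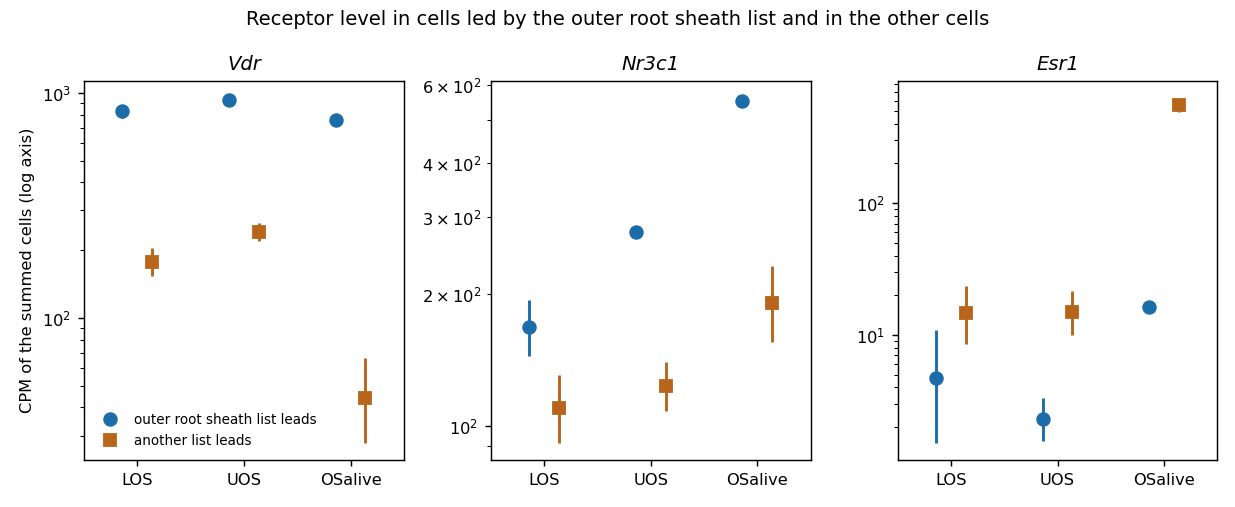
The y axis is the CPM of the summed cells on a log axis, for cells led by the ORS list and for the other cells of LOS, UOS and OSalive (x axis), with 95% Poisson intervals and 1 panel per receptor. Vdr and Nr3c1 lie higher in the cells led by the ORS list in these sorts, and Esr1 lies higher in the other cells, at 557 against 16.4 CPM in OSalive.

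The change from late anagen to CatVII was read as the log2 ratio of all CatVII cells to the 150 cells of UOS and MOS together. Nr3c1 stood at 531 CPM at CatVII and 250.9 CPM in late anagen, 2.12-fold higher (log2 ratio 1.08, 95% interval 1.03 to 1.13). Esr1 stood at 21.9 against 5.85 CPM, 3.75-fold higher (1.91, 1.61 to 2.23). These are 2 of 4 receptors at or past 2-fold, both upwards, where 13.4% of the 12453 protein-coding genes with at least 100 counts over both sides were at least 2-fold higher and 17.8% at least 2-fold lower. Nr3c2 stood at 15.02 against 7.90 CPM (0.93, 0.66 to 1.21) and Vdr at 733 against 868 CPM (-0.24, -0.27 to -0.22), beside a median of 0.00 over all genes. The receptors therefore did not move together. Nr3c1 remained between 0.78 and 1.42 over 16 alternatives, positive in all of them but under 2-fold in some, among them cells led by the ORS list (0.99) and the mean over cells (0.81). Scaling by all gene rows moved every ratio of this comparison by -0.30, and Nr3c1 was then at 0.78 and Esr1 at 1.61. The Esr1 ratio was 2.45 against UOS alone and 0.02 against MOS alone, so that it rests on which late anagen sort is the reference, and without the highest cell of each group it was 2.24. Nr3c2 was past 2-fold under 5 alternatives and reached 2.26 without the highest cell of each group, because 1 UOS cell held 84 of its late anagen counts.

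Against CatVI, the CatVII cells were higher in 3 of the 4 receptors by at least 2-fold. Nr3c1 stood at 531 against 176.9 CPM, 3.002-fold higher (log2 ratio 1.59, 95% interval 1.46 to 1.72). Esr1 stood at 21.9 against 1.42 CPM (3.95, 2.59 to 5.83) and Nr3c2 at 15.02 against 1.06 CPM (3.82, 2.27 to 6.10), on 4 and 3 counts at CatVI. Vdr stood at 733 against 548 CPM (0.42, 0.35 to 0.49). Of 12112 genes 20.6% were at least 2-fold higher and 16.3% at least 2-fold lower, and the median was 0.03. The same 3 receptors passed 2-fold under all 18 alternatives, and Nr3c1 ran from 1.35 to 2.09 over them. Esr1 ran from 2.24 to 4.66 and Nr3c2 from 2.17 to 3.96, and some values in these ranges are lower limits. Where an alternative left a CatVI count of 0, 3 counts were put in its place. That held for Esr1 without pl1 and for Nr3c2 without pl6 or without the highest cell of each group.

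From late anagen to CatVI none of the receptors was at least 2-fold higher. Nr3c2 was lower, at 1.06 against 7.90 CPM (log2 ratio -2.89, 95% interval -5.19 to -1.31) and only 3 counts at CatVI. Vdr took its place as the receptor past 2-fold against MOS alone (-1.06) and without the highest cell of each group (-1.04). Vdr stood at 548 against 868 CPM (-0.66, -0.74 to -0.59) and Nr3c1 at 176.9 against 250.9 CPM (-0.50, -0.64 to -0.37). Esr1 was under the minimum of 100 counts, at 4 against 94 counts (-2.04, -3.95 to -0.64). Of 10804 genes 12.1% were at least 2-fold higher and 23.2% at least 2-fold lower, around a median of -0.14. The comparisons of CatVI and CatVII with late anagen share the UOS and MOS cells. The CatVI values rest on 57 of the 315 cells with counts on the 4 plates that had passing cells.

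**Figure D4:**
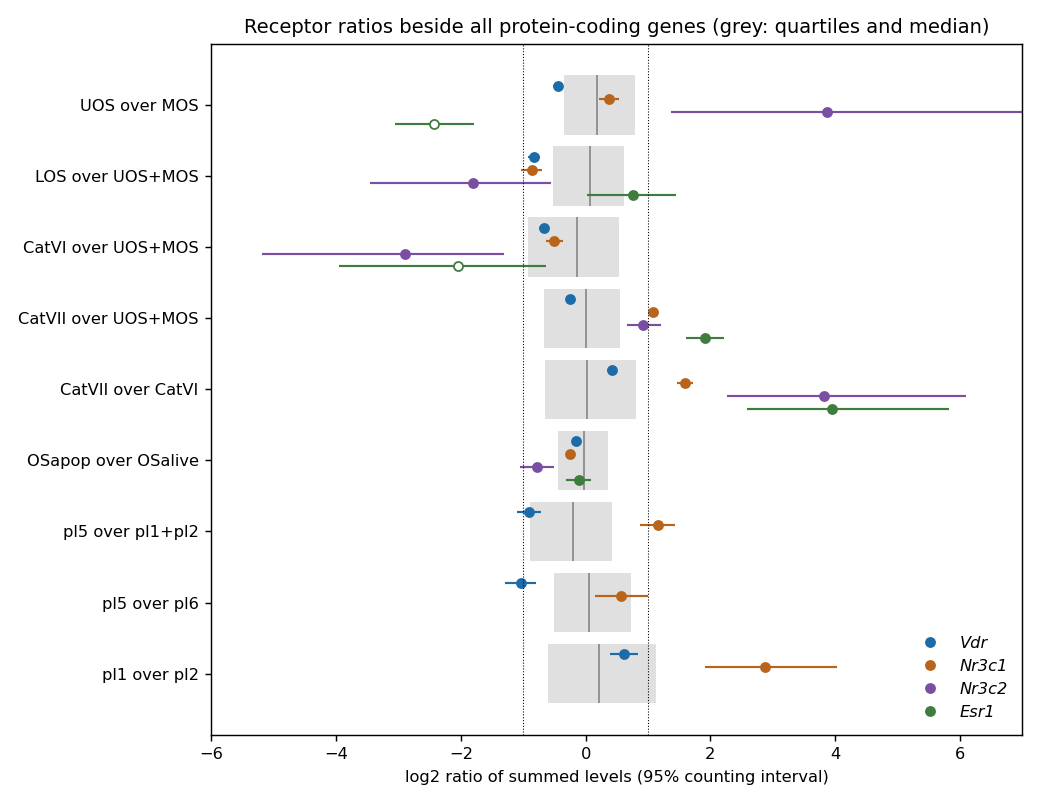
The x axis gives the log2 ratio of summed levels for each receptor with its 95% counting interval, and the rows are the 9 comparisons, with the quartiles and median of all protein-coding genes in grey and open symbols under 100 counts. At CatVII against late anagen Nr3c1 (1.08), Nr3c2 (0.93) and Esr1 (1.91) lie right of the grey bar and Vdr (-0.24) lies within it.

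Within late anagen the lower ORS was compared with the upper-middle ORS. Vdr stood at 489 CPM in LOS against 868 CPM in UOS and MOS together (log2 ratio -0.83, 95% interval -0.92 to -0.74) and Nr3c1 at 137.9 against 250.9 CPM (-0.86, -1.04 to -0.70). Esr1 stood at 9.91 against 5.85 CPM (0.76, 0.02 to 1.44). The direction for Esr1 depended on the reference sort, since LOS lay above UOS (4.03 CPM) and below MOS (21.6 CPM). Its ratio ran from -1.12 to 1.90 over 15 alternatives. Only Nr3c2 passed 2-fold, at 2.25 against 7.90 CPM (-1.81, -3.46 to -0.55), on 5 counts in 1 LOS cell. The background was 14.5% of 10887 genes at least 2-fold higher and 13.2% at least 2-fold lower, with a median of 0.07. Among cells led by the ORS list Vdr moved to -0.21, Nr3c1 to -0.67, Esr1 to 0.03 and Nr3c2 to -0.87, and none was then 2-fold apart. The fibroblast and inner root sheath markers given above differ between these sorts, and their part in the remaining gaps was not tested.

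UOS and MOS share the labels of region and stage but are titled as separate sorts, so their gap is one between sorts and not between replicates of a region. Vdr stood at 836 CPM in UOS against 1143 CPM in MOS (log2 ratio -0.45, 95% interval -0.52 to -0.38) and Nr3c1 at 257.02 against 198.1 CPM (0.38, 0.21 to 0.54). Esr1 stood at 4.03 against 21.6 CPM, 5.37-fold lower in UOS (-2.42, -3.05 to -1.78), but its 94 counts were under the minimum. Nr3c2 passed 2-fold with 1 count in MOS (3.86, 1.36 to 9.18) and was at 0.67 without the highest cell of each group. Of 10439 genes 19.9% were at least 2-fold higher in UOS and 8.03% at least 2-fold lower, around a median of 0.18. For Esr1 the gap between these sorts was larger than the ratio of CatVII to both, and for Nr3c1 it was smaller.

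At CatVII 0 of 4 receptors were 2-fold apart between the OSapop and OSalive sorts, and Nr3c2 lay furthest apart. The log2 ratio of OSapop to OSalive was -0.16 for Vdr (95% interval -0.19 to -0.12), -0.25 for Nr3c1 (-0.29 to -0.21), -0.78 for Nr3c2 (-1.06 to -0.51) and -0.11 for Esr1 (-0.31 to 0.08). Of 11988 genes 7.42% were at least 2-fold higher and 11.6% at least 2-fold lower. Nr3c2 reached -1.29 without the highest cell of each group. For Vdr the direction turned with the weight of the cells, to 0.12 as the mean over cells and 0.03 at equal depth. For Esr1 it turned to 0.31 among cells led by the ORS list and to 0.04 under scaling by all gene rows.

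The CatVI plates differed in Vdr and Nr3c1, the receptors with enough counts there. Nr3c1 was 269.8 CPM on pl5 against 121.4 CPM on pl1 and pl2 together (log2 ratio 1.15, 95% interval 0.87 to 1.43) and Vdr 341 against 637 CPM (-0.90, -1.09 to -0.72). In this comparison 10.7% of 5083 genes were at least 2-fold higher and 22.1% at least 2-fold lower. The mean over cells was also lower for Vdr on pl5, at 353.8 against 537 CPM. The median cell went the other way, at 231.2 CPM on pl5 against 138.9 CPM on pl1 and pl2 together. So did the share of cells with a Vdr count, at 15 of 15 against 20 of 28, so the direction depended on the measure. Against pl6 the Vdr level of pl5 was 341 against 701 CPM (-1.04, -1.29 to -0.79) and the Nr3c1 ratio was 0.56 (0.15 to 0.99), where 18% of 2769 genes were at least 2-fold higher and 10.8% at least 2-fold lower. Without the highest cell of each group the Vdr ratio was -0.90. The Nr3c1 ratio of pl5 to pl6 ran from -0.16 to 1.14 over 13 alternatives. As the mean over cells, Nr3c1 was lower on pl5, at 220.1 against 245.2 CPM, so its direction was not settled. Plates pl1 and pl2, which share their sort label, stood 2.87 apart in Nr3c1 (1.91 to 4.02), with 157.5 and 21.5 CPM, and 0.61 apart in Vdr (0.38 to 0.85), and 27.9% of 3682 genes were at least 2-fold higher on pl1 and 16.1% at least 2-fold lower. A single cell held 57.1% of the Nr3c1 counts of pl1. The gap in Nr3c1 between plates of 1 sort was thus larger than that between pl5 and those plates.

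The partners and enzymes around VDR were read from lists. Rxra, its partner, was counted at between 220.1 CPM on pl2 and 572 CPM in OSapop, and Rxrg at 0 in all groups but pl2. Hr (hairless), a corepressor that binds VDR and is needed for hair regrowth, was counted at between 1139 CPM on pl2 and 3064 CPM on pl5. Cyp24a1, which breaks vitamin D down and is the classic target of liganded VDR, was listed at 0 in all groups but pl2, at 2.39 CPM. Cyp27b1, which makes the active hormone, was at most 13.1 CPM. Of 9 genes of vitamin D activation and breakdown 3 had at least 100 counts at CatVII against late anagen and 0 were 2-fold apart, with a median of -0.35. Of 12 VDR targets 4 had enough counts there and 1 was higher, against 13.4% of all genes, Tgfb2 (a ligand of the TGF-beta pathway), at 135.98 against 33.6 CPM (2.02), with a median of 0.17 for the 4, which was below 0 under scaling by all gene rows. Tgfb2 itself stood at 6.39 CPM in UOS and 268.98 CPM in MOS, so its late anagen level depended on the sort. Igfbp3, another target, stood at 220.6 CPM in UOS and 13.2 CPM in MOS.

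Several targets of the glucocorticoid receptor were lower at CatVI and at CatVII than in late anagen. At CatVII against late anagen 22 of 24 had at least 100 counts, of which 1 was at least 2-fold higher and 8 at least 2-fold lower, with a median of -0.68 beside 0.00 over all genes, of which 13.4% were higher and 17.8% lower. Dusp1, a phosphatase that dampens MAP kinases and is also an early stress gene, was higher at 925 against 428 CPM (1.11). Lower were Sgk1, a kinase that stabilises sodium channels, at 216.6 against 499 CPM (-1.20), the metallothionein Mt2 at 8.76 against 24.1 CPM (-1.46) and Ddit4, an inhibitor of mTORC1, at 3.66 against 19.2 CPM (-2.39). At CatVI against late anagen 0 of 20 were higher and 12 lower, against 12.1% and 23.2% of all genes, with a median of -1.28 beside -0.14. These included Anxa1 (annexin A1) at 60.3 against 252.1 CPM (-2.06), the clock gene Per1 at 79.8 against 216.2 CPM (-1.44), the zinc finger gene Zbtb16 at 45.4 against 229.9 CPM (-2.34) and the NF-kappaB inhibitor Nfkbia at 46.1 against 138.3 CPM (-1.59). At CatVII against CatVI 10 of 19 were higher and 3 lower, against 20.6% and 16.3% of all genes, with a median of 1.56 beside 0.03. Per1 stood at 348 against 79.8 CPM (2.13), Zbtb16 at 226.98 against 45.4 CPM (2.32), Dusp1 at 925 against 230.05 CPM (2.01) and Anxa1 at 191.5 against 60.3 CPM (1.67).

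Genes that rise when tissue is dissociated moved in some of the same comparisons. The 10 dissociation genes summed to 2260 to 4017 CPM on the plates, 7476 CPM in OSalive, 4203 CPM in OSapop, 5027 CPM in UOS, 6173 CPM in MOS and 3160 CPM in LOS. Of these genes 6 of 10 were at least 2-fold higher at CatVII than at CatVI, where 20.6% of all genes were, and 0 were lower. Their part in the levels of the glucocorticoid targets was not tested. Between OSapop and OSalive 6 of 19 glucocorticoid targets with enough counts were at least 2-fold lower, among them Dusp1 at 429 against 1065 CPM (-1.31) and Tsc22d3 (GILZ) at 11.9 against 41.3 CPM (-1.80), and 1 was higher, with a median of 0.04, where 11.6% of all genes were lower and 7.42% higher. The higher one was Fkbp5, an HSP90 helper that is induced by glucocorticoids, at 24.5 against 7.69 CPM (1.67). Within late anagen, 3 of 20 were higher and 5 lower in LOS, with Glul (glutamine synthetase) at 237.03 against 77.5 CPM (1.61) and Per1 at 82.5 against 216.2 CPM (-1.39), where 14.5% of all genes were higher and 13.2% lower. In UOS against MOS 6 of 20 were higher and 1 lower, against 19.9% and 8.03% of all genes.

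Targets of the mineralocorticoid receptor share members with the previous list. At CatVII against late anagen 3 of 10 with enough counts were higher and 1 lower, against 13.4% and 17.8% of all genes, with a median of 0.49. Scnn1g, a subunit of the epithelial sodium channel, stood at 40.7 against 6.66 CPM (2.61), and Nedd4l, a ubiquitin ligase that removes the channel, at 77.95 against 36.7 CPM (1.09). Hsd11b2 passed 2-fold too, but at 1.70 against 0.249 CPM, on 4 late anagen counts (2.77, 95% interval 1.37 to 4.67). Hsd11b2 was thus near 0 in the sheath, as was Hsd11b1, which regenerates the active glucocorticoid and was at most 0.451 CPM. Against CatVI 5 of 10 were higher and 1 lower, where 20.6% and 16.3% of all genes were, with Scnn1g at 40.7 against 5.32 CPM (2.94).

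Among 15 estrogen receptor targets 8 had enough counts at CatVII against late anagen, 1 was higher and 0 were lower, with a median of 0.40. The count of higher genes is near the share over all genes, 13.4%. Wnt4, a WNT ligand, stood at 30.9 against 15.4 CPM (1.01). Pgr (progesterone receptor), a classic target, was at most 9.14 CPM in any group, and Esr2 was counted on pl2 alone. At CatVI against late anagen 1 of 7 targets was higher and 2 lower, where 12.1% and 23.2% of all genes were. At CatVII against CatVI 2 of 8 were higher, against 20.6% of all genes, and 1 was lower, against 16.3%, the lysosomal protease Ctsd at 496 against 1026 CPM (-1.05).

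Of the chaperones that hold steroid receptors ready for ligand, all 16 had enough counts at CatVII against late anagen, of which 0 were higher and 4 lower, against 13.4% and 17.8% of all genes, with a median of -0.42. The lower genes were the HSP70 member Hspa8 at 426 against 1020 CPM (-1.26), its cochaperones Dnaja1 at 70.7 against 178.2 CPM (-1.33) and Bag1 at 16.3 against 54.5 CPM (-1.74), and the cyclophilin Ppid at 22.3 against 55.2 CPM (-1.31). Hspa8 was also lower at CatVI than in late anagen, at 429.6 against 1020 CPM (-1.25), where 3 of 16 were lower and 0 higher, against 23.2% and 12.1% of all genes. At CatVII against late anagen 0 of 13 coactivators and 0 of 10 corepressors were 2-fold apart, with medians of 0.39 and, below 0 under scaling by all gene rows, 0.08. At CatVI the coactivator Ncoa3 was higher at 255.2 against 108.4 CPM (1.24), where 12.1% of all genes were at least 2-fold higher. It is 1 gene of a list of 13, so it is no result about the list. Of 17 genes of steroid metabolism 9 had enough counts at CatVII against late anagen, of which 2 were higher and 3 lower, against 13.4% and 17.8% of all genes. The lower ones were Hsd17b4 at 27.3 against 87.3 CPM (-1.68), Hsd17b10 at 7.01 against 41.6 CPM (-2.57) and the steroid sulfotransferase Sult2b1 at 2.09 against 17.9 CPM (-3.09).

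**Figure D5:**
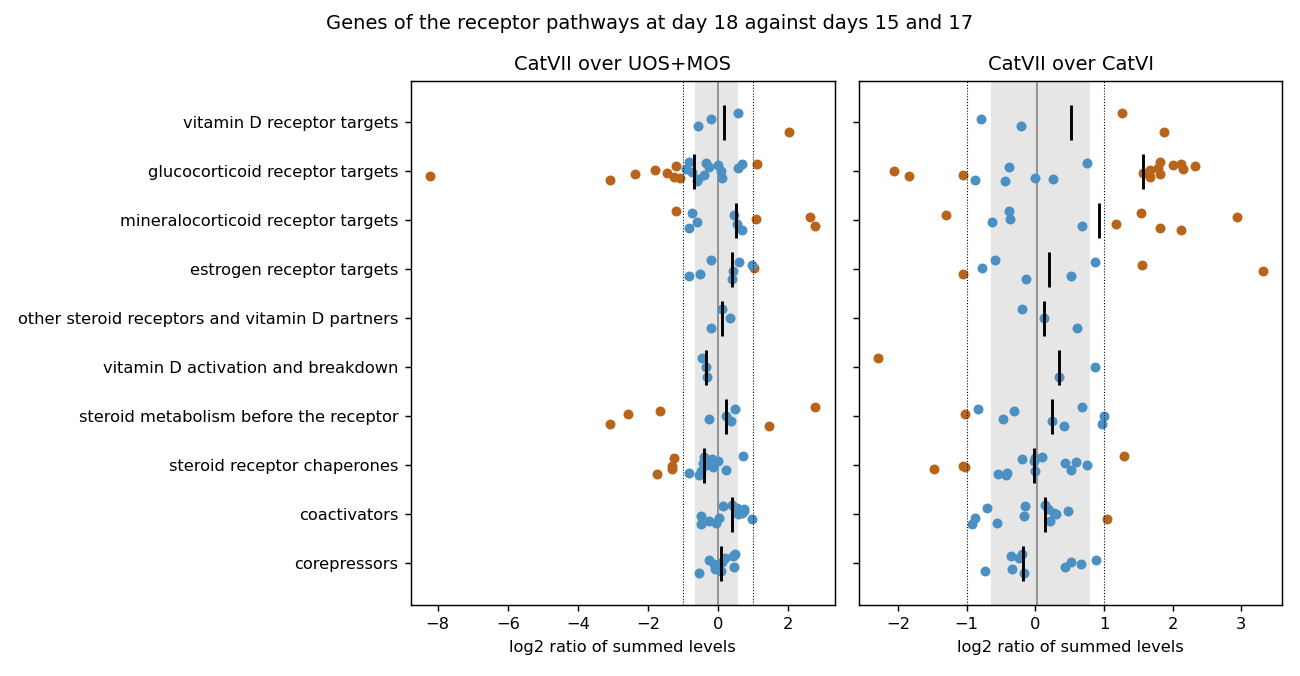
The x axis is the log2 ratio of summed levels at CatVII against late anagen and against CatVI, and each row is a list of pathway genes with at least 100 counts, 1 point per gene. Glucocorticoid targets have a median of -0.68 against late anagen and of 1.56 against CatVI.

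The genes most like each receptor over the 9 groups were found by Pearson's r of log2(CPM + 1) among genes that reach 50 CPM in a group. They were Peg3 (0.94), Plxdc2 (0.92) and Cpne8 (0.92) for Vdr and Sostdc1 (0.98), Tmem79 (0.96) and Cxcr4 (0.96) for Nr3c1. For Nr3c2 they were Ttll7 (0.92), Gfra2 (0.92) and Kcnc4 (0.92), and for Esr1 Slf2 (0.97), Zc3h7b (0.97) and Crispld1 (0.96). The imprinted gene Peg3 ran from 23.9 CPM on pl5 to 291.2 CPM in MOS, which were also the lowest and the highest group by the summed level of Vdr. Sostdc1, a secreted inhibitor of BMP and WNT signals, ran from 0 on pl2 to 364 CPM in OSapop. Each r rests on 9 points that share sorts, depth and scaling, and ranking by Spearman's rho named 3 other genes for each receptor. Between the receptors themselves r was highest for Nr3c1 and Nr3c2 at 0.62 and lowest for Vdr and Nr3c1 at 0.33.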

How the data were processed

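Smart-seq2 libraries of single sorted cells were analysed. Per the study's methods, singlets that were Sca1-negative, negative for the lineage proteins of endothelium, melanocytes, fibroblasts (CD140a) and blood, CD34+ and Itga6+ were sorted, annexin V and DAPI set the gates of living and dying cells, and a qPCR excluded poor wells and wells with several cells. No doublet caller was run. The submitters' processing notes name STAR 2.6, Salmon 1.4.0, R 3.6.1 and the build mm39, and the authors summed transcripts with tximport, so the deposited values are estimated counts per gene without normalization (0.471% of values were not whole). Here they were rounded, and the 92 spike-ins were kept apart. A deposited table of cell labels gave no values for the report. Symbols, types, lengths and promoters came from GENCODE vM39 on GRCm39, in which 93.3% of the gene rows were found.

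Samples were grouped by sort or plate from their titles and labels. The labels of 1 cell name different stages, so it belongs to no group, and 1 labelled sample of pl6 was without a column. No plate is named within UOS, OSalive and OSapop, although 40, 68 and 52 well labels there were seen 2 times. A gene was called where its log2 ratio was at least 1 in size with at least 100 counts over both sides. No test between groups was made. Counts for CatVII against UOS and MOS were simulated with Poisson error alone over 12453 genes. In these, 200 of 200 changed genes had the right sign and 95.3% of intervals held the true ratio. The simulation had no spread between cells, so it checks the calculation and cannot show how well the intervals cover in the real data. The receptors and lists were chosen with earlier results of these data known. Beside the receptors, the genes named are at most 4 called members with the highest levels per list and comparison, further genes of the pathway named for their role after their values were seen, and the 3 genes most like each receptor. Alternatives concerned scaling, weight and depth of cells, the minimum of detected genes, single cells, reference sorts, plates and rounding. Python 3.11.15, numpy 2.4.6, pandas 2.3.3, scipy 1.17.1, matplotlib 3.10.9, R 4.3.3 and edgeR 4.0.16 (TMM factors only) were used.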

Additional observations from a re-analysis of the deposited data

Results flagged for a closer look

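Counts of the receptors were also found in wells that the report does not use. The 572 cells with under 2000 detected genes gave Vdr at 581 CPM (95% interval 512 to 656), with a count in 87 cells. They gave Nr3c1 at 161.05 CPM, 71 counts in 38 cells, and Esr1 at 24.95 CPM, 11 counts in 4 cells. These levels lie above the 6.80 CPM that a count of 0 allows over these cells, whereas Nr3c2 had 2 counts. The cell whose labels name different stages held 9 counts of Vdr among 9567 protein-coding counts, 1 each of Nr3c1 and Esr1 and 0 of Nr3c2.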

How the results depend on the processing

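The number of receptors past 2-fold was recomputed for 9 comparisons, and 84.2% of the recomputed numbers lay within 1.5 times the reported one while 21 did not. The 3 receptors past 2-fold at CatVII against CatVI and the 1 at CatVI against late anagen did not change in number. At CatVII against late anagen the number fell from 2 to 1, Esr1, with all gene rows or all rows except ENSMUSG00000106106 as the total, with the mean over cells, at 10000 counts a cell and among cells led by the ORS list. In LOS against UOS and MOS it went from 1 to 0 among cells led by the ORS list and without the highest cell of each group, to 2 with TMM factors and to 3 at 10000 counts a cell. Without the highest cell it went from 0 to 1 (Nr3c2) in OSapop against OSalive and from 1 to 0 in UOS against MOS, pl1 against pl2 and pl5 against pl6. In pl1 against pl2 this was for want of 100 counts, since Nr3c1 still stood at a log2 ratio of 2.29. UOS against MOS also fell to 0 at 10000 counts a cell, and pl5 against pl1 and pl2 rose from 1 to 2 among cells led by the ORS list. In pl5 against pl6 it was 0 with all rows, all rows except that identifier, TMM factors, median-of-ratios factors or a minimum of 1000 genes, and 2 at 3000 genes. Of 453 recomputed log2 ratios 351 kept their value within the counting interval and 22.3% moved. A reversal was counted only for a called ratio, and there was 1, Nr3c2 in LOS against MOS alone (1.91, on 5 against 1 counts). Some ratios that were not called also turned in sign, among them those of Vdr and Esr1 in OSapop against OSalive. Of 72 shares of cells at other depths 57 stayed within their interval. With all rows as the total, the share of called genes that were higher was 27.9% in place of 42.9% at CatVII against late anagen, 43.4% in place of 55.8% against CatVI, 49.3% in place of 39.04% in OSapop against OSalive and 74.9% in place of 62.6% in pl5 against pl6. Without that identifier it was 31.98% at CatVII against late anagen, 19.8% in place of 34.3% at CatVI and 75.3% in place of 63.4% in pl1 against pl2. Where no cause is shown by the alternative's own construction, the cause was not tested.

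The alternatives with cells led by the ORS list and without Lars2 were chosen after seeing the data. No paired analysis was possible because each group was 1 pool, replicate numbers only name cells and no test was made. Depth limits Nr3c2 and Esr1 most, which had 0 to 4 counts on each CatVI plate.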
